A study of Homo sapiens with 6 samples.

Results

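The genes described here are 10 outputs of ERK signalling grouped around the transcription factor gene ETV4, out of 63236 genes listed in a comparison of FUJIOKA cells with and without silencing of SPINK2. They are ETV4, ETV5 and ETV1 (the PEA3 transcription factors), DUSP4 and DUSP6 (ERK phosphatases), SPRY2, SPRY4, SPRED1 and SPRED2 (inhibitors of the pathway) and PHLDA1. They were chosen by name, with the fall of ETV4 in this same comparison already known, so their differences between the arms are given as a description, with no test. FUJIOKA is a human acute myeloid leukaemia cell line, and both arms carried a doxycycline-inducible hairpin in the Tet-pLKO-puro vector, selected as a stable line. In the shNEG arm (3 libraries) the hairpin was a scrambled, non-targeting control, and in the shSPINK2 arm (3 libraries) it was directed at SPINK2. The time on doxycycline at which the RNA was taken is not given in the sources used here. The labels name 2 SPINK2 hairpins and the methods 1, without saying which one a given shSPINK2 library carries, and nothing states that the 3 libraries of an arm came from separate cultures, so the spread between them may be technical. The reads are from a bulk culture, in which fewer cells expressing a gene and less RNA per cell cannot be told apart.

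ERK is the last kinase of the cascade that runs from growth factor receptors through RAS, RAF and MEK. In many cells active ERK relieves repression by capicua (CIC) and switches on the PEA3 factors, and it also induces its own inhibitors, the DUSP phosphatases that remove phosphate from ERK and the Sprouty and SPRED proteins that act at the level of RAS and RAF. RNA of these genes is therefore widely used as a readout of pathway output, while the PEA3 factors are themselves transcriptional activators.

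The deposited table gives 1 mean of normalized reads per gene over the 6 libraries, and the whole reads of each library were worked out from it for 9 of the 10 genes. The exception was SPRED1, listed at a mean of 0. The means sum to 38425214 reads per library, the size factors (relative depths) lay between 0.985 and 1.03, and libraries are called a to c within an arm in order of size factor, which is not a replicate number. The targeted gene was silenced as labelled. Reads of SPINK2 numbered 53, 63 and 56 in shNEG against 6, 9 and 7 in shSPINK2, or 12.7% of the shNEG level. Of the myeloid markers, PTPRC, CD33, MPO, CSF3R, LYZ, SPI1, CEBPA and RUNX1 were at means of 1844 normalized reads (MPO) or more, CD34 was at 19.6 and KIT at 0.67. Among markers of other cell types HBB, EPCAM, KRT18, COL1A2 and CDH5 were at 0, and the summed level of the 14 genes was 353 to 377 normalized reads in shNEG and 385 to 403 in shSPINK2.

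The hairpin targets in the labels are shown with the sites of 1 word of shRNA2, GCTCTCA, in ETV4, SPRY4 and PHLDA1, because the members that hold it include the 2 with the lowest log2 differences. For shRNA1 the capitals mark the 7 bases that pair with positions 2 to 8 (the seed) of a guide fully complementary to the target. For shRNA2 they mark target positions 10 to 16, which are not the seed. This word was looked for after earlier results of these data were known. No other 7-base word of the targets, apart from the seed words, was counted in the transcripts.
shRNA1: tcagggaaggtggTCATAATa
shRNA2: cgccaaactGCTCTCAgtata
ETV4 coding sequence: cagcgtccaGCTCTCAaggctgagt
SPRY4 3′ UTR: ttgtctttgGCTCTCAcaggagcta
PHLDA1 3′ UTR: cttttctttGCTCTCAtgtcattcc

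The capitals in ETV4 lie at chr17:43528653-43528659, those in SPRY4 at chr5:142313796-142313802 and those in PHLDA1 at chr12:76026873-76026879 (GRCh38, all on the minus strand, canonical transcripts of GENCODE 44). GCTCTCA was found in 21.1% of 20046 canonical coding transcripts, and among these 10 genes in those 3 and not in ETV5, ETV1, DUSP4, DUSP6, SPRY2, SPRED1 or SPRED2. The shRNA1 seed word TCATAAT was found in SPRED1 and PHLDA1, against 15.7% of all transcripts, and the shRNA2 seed word TCAGTAT in SPRY2, SPRED1 and PHLDA1, against 19.8%. The longest run shared with either target was 10 bases, between ETV1 and shRNA2, and runs of at least 10 bases with that target occurred in 5.0% of transcripts. A match is a description of the letters, and its part in any level below was not tested.

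The libraries of the arms did not overlap for any of the 9 genes with reads. All 3 shSPINK2 libraries lay below all 3 shNEG libraries for 8 genes, and above them for 1 gene, DUSP6. Of these 9, ETV1 had a mean under 10 normalized reads and did not pass the filter used for all genes, which left 7 lower and 1 higher. Across the 15537 genes that passed the filter, 31.6% had every shSPINK2 library below every shNEG library and 30.3% had every one above. Nothing is read from these shares, since the genes were chosen on the same contrast.

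**Figure D1:**
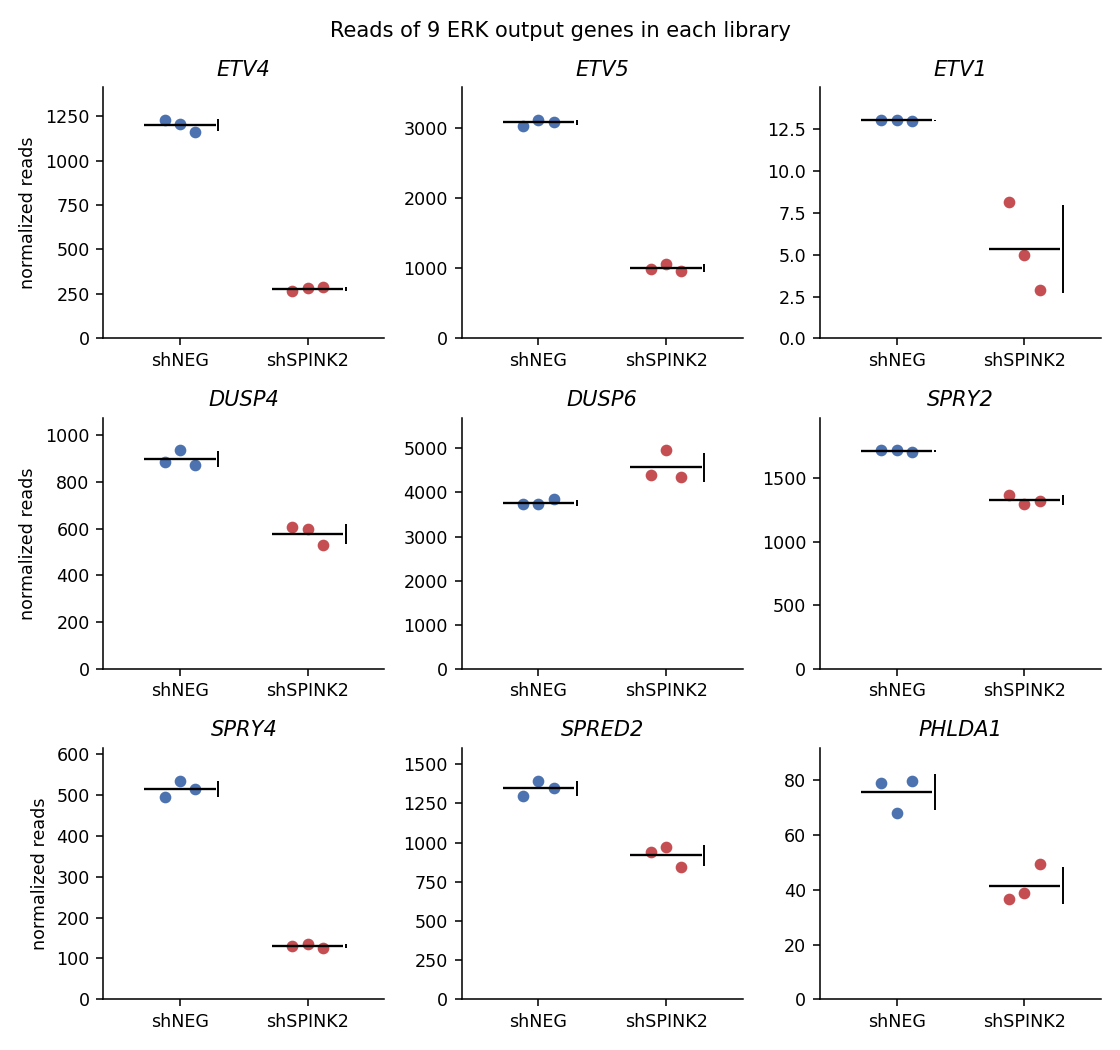
Normalized reads (reads divided by the library's size factor, linear axes from 0) of 9 genes in the 3 shNEG (blue) and 3 shSPINK2 (red) libraries. Each point is a library, the horizontal line the mean and the vertical bar 1 SD, and the arms do not overlap in any panel, with shSPINK2 lower in 8 and higher in DUSP6.

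The PEA3 factors were all lower in shSPINK2. ETV4 (ENSG00000175832.12, chromosome 17 from 43527844 to 43579620, GRCh38), an ETS-domain activator linked to growth and invasion in solid tumours, had 1226, 1208 and 1164 reads in shNEG (libraries a to c) and 265, 284 and 299 in shSPINK2. The highest shSPINK2 library was thus 871 normalized reads below the lowest shNEG library. The normalized mean was 1198 ± 34.2 (SD, n = 3) in shNEG and 279.9 ± 10.3 (SD, n = 3) in shSPINK2, a level of 23.4%, and the log2 difference was -2.09 (standard error 0.04).

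ETV5 (ENSG00000244405.7, chromosome 3 from 186046314 to 186110318), a close relative of ETV4 with the same kind of DNA-binding domain, had 3035, 3120 and 3102 reads in shNEG and 971, 1076 and 993 in shSPINK2. Both arms were tight, and the mean went from 3083 ± 40.7 to 1004 ± 54.9 normalized reads (SD, n = 3 each). That is 32.6% of the shNEG level, with a log2 difference of -1.62 (standard error 0.05). ETV1 (ENSG00000006468.13, chromosome 7 from 13891229 to 13991425), the remaining PEA3 factor, was barely expressed, with 13 reads in each shNEG library and 8, 5 and 3 in shSPINK2. Its log2 difference of -1.23 carried a standard error of 0.35, and leaving out 1 library at a time moved it between -1.54 and -0.93.

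Levels of different genes were set side by side per kb of exon, with the exons of all annotated transcripts of a gene joined. By this measure ETV5 was the most abundant PEA3 factor in both arms. In shNEG it gave 60.9% ± 0.88 (SD, n = 3) of the normalized reads per kb of the 3 genes, ETV4 38.9% ± 0.88 and ETV1 0.15%. In shSPINK2 the sum of the 3 went from 876 ± 8.77 to 254 ± 9.61 normalized reads per kb (SD, n = 3 each), and ETV5 made up 68.4% ± 1.44 of it. The ratio of ETV5 to ETV4 per kb was between 1.51 and 1.62 in the shNEG libraries and between 2.02 and 2.31 in the shSPINK2 libraries. ETV4 was therefore lowered further than ETV5 in every pairing of libraries.

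The ERK phosphatases went in opposite directions. DUSP4 (ENSG00000120875.8, chromosome 8), a nuclear phosphatase of ERK and other MAP kinases, had 885, 935 and 875 reads in shNEG and 598, 606 and 547 in shSPINK2. Its mean of 898 ± 32.5 normalized reads in shNEG stood against 579 ± 42.9 in shSPINK2 (SD, n = 3 each), a log2 difference of -0.63 (standard error 0.07). DUSP6 (ENSG00000139318.7, chromosome 12 from 89347235 to 89352501), the cytoplasmic phosphatase that acts on ERK with high selectivity, was the one member that was higher. It had 3729, 3733 and 3856 reads in shNEG and 4331, 5000 and 4506 in shSPINK2, where library b stood above the other two. The mean was 3769.6 ± 65.3 normalized reads in shNEG and 4569.9 ± 332 in shSPINK2 (SD, n = 3 each), 1.21-fold higher, and the log2 difference of 0.28 (standard error 0.06) became 0.22 without that library.

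The Sprouty and SPRED genes were lower by very different amounts. SPRY4 (ENSG00000187678.8, chromosome 5 from 142310427 to 142326455), an inhibitor of receptor signalling to RAS and RAF, had 494, 535 and 517 reads in shNEG and 128, 136 and 129 in shSPINK2. Its mean of 515 ± 20.1 normalized reads went to 129.8 ± 4.94 (SD, n = 3 each), 25.2% of the shNEG level. The log2 difference of -1.98 (standard error 0.05) placed it beside ETV4 and apart from its paralogue. SPRY2 (ENSG00000136158.11, chromosome 13 from 80335976 to 80341126), a Sprouty protein of the same kind, had 1716, 1719 and 1707 reads in shNEG and 1351, 1307 and 1361 in shSPINK2. The means were 1713 ± 9.10 and 1328 ± 39.2 normalized reads (SD, n = 3 each), so that 77.5% of the level was left, with a log2 difference of -0.37 (standard error 0.02). The shSPINK2 libraries lay close together, and the gap of 331 normalized reads to the nearest shNEG library exceeded the spread in either arm.

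SPRED2 (ENSG00000198369.9, chromosome 2 from 65310851 to 65432637), a membrane-bound inhibitor of RAS signalling, had 1296, 1395 and 1350 reads in shNEG and 925, 982 and 871 in shSPINK2. Its mean was 1346 ± 48.3 normalized reads in shNEG and 918 ± 67.3 in shSPINK2 (SD, n = 3 each), and the log2 difference was -0.55 (standard error 0.07). SPRED1 (ENSG00000166068.12, chromosome 15 from 38252836 to 38357249), which recruits neurofibromin to RAS, was listed at a mean of 0, which is no read in any of the 6 libraries. A level too low to be read at this depth is not excluded. A mean of 0 was given for 18.2% of the 19727 protein-coding genes in the table. Of its coding neighbours, TMCO5A was also at 0, RASGRP1 had a mean of 4.47, and FAM98B and MEIS2 on either side had means of 1447 and 485 normalized reads. No difference between the arms can be given for SPRED1.

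PHLDA1 (ENSG00000139289.13, chromosome 12 from 76025447 to 76031776), a pleckstrin-homology-like gene induced by growth factors, was the least precise after ETV1. It had 79, 68 and 80 reads in shNEG and 36, 39 and 51 in shSPINK2. The mean was 75.6 ± 6.63 normalized reads in shNEG and 41.5 ± 6.88 in shSPINK2 (SD, n = 3 each), and the log2 difference was -0.86 (standard error 0.15), between -0.99 and -0.77 when each library was left out in turn.

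The DUSP6 promoter is shown because it is the member that moved against the others and because it holds a pair of capicua octamers, marked by capitals. The 300 bases run from 250 before to 50 after the start of the gene (RefSeq, GRCh38.p14, minus strand, chr12:89352452-89352751).
DUSP6 promoter: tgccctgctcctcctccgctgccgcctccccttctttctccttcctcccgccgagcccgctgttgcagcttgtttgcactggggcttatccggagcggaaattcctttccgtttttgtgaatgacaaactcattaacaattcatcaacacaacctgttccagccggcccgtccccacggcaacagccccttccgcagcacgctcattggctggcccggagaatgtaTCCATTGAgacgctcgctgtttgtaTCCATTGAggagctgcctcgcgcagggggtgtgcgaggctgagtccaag
ETV1 promoter: ccggaattttgTGAATGGAgacgaaaggtg

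The octamers searched were TGAATGAA, TGAATGGA, TCAATGAA and TCAATGGA on both strands, and TCCATTGA is TCAATGGA read on the other strand. At least 1 of them occurred in 3.77% of 35116 promoter sequences of this length, and in 2 of the 15 promoter sequences of the 7 members that have one, those of DUSP6 and ETV1, which lie on opposite sides of 0 in this comparison. The stretch of ETV1 shown is 30 bases around the octamer of 1 of its 6 promoter sequences (chr7:13991376-13991675). In the same promoters the AP-1 word TGACTCA was found in SPRED2 (4.95% of all promoters), the EGR word GCGGGGGCG in SPRY2 (5.07%) and the ETS word CCGGAAGT in none of the 7 (4.14%). ETV4, ETV5 and DUSP4 were not among the promoter sequences.

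**Figure D2:**
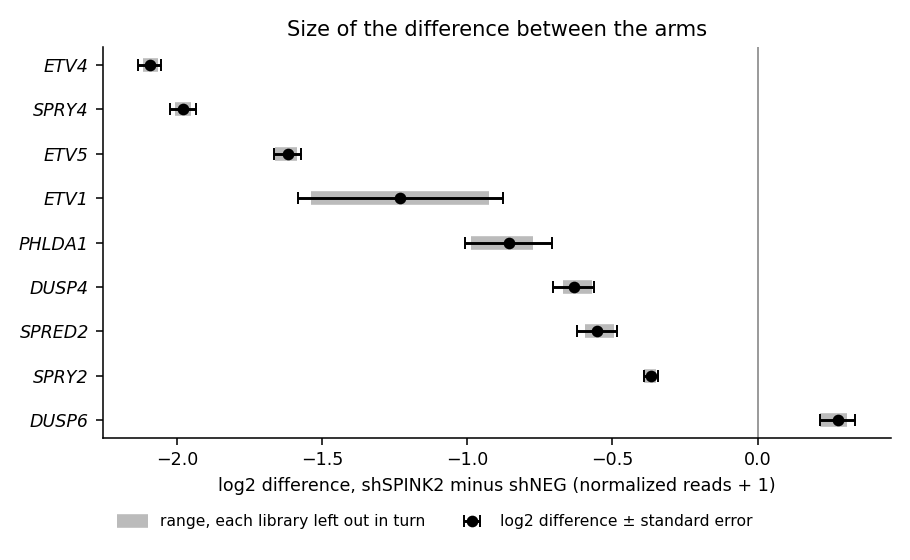
Log2 difference of shSPINK2 minus shNEG for 9 genes, on the log2(normalized reads + 1) scale, as the point with its standard error (n = 3 libraries per arm). The grey bars give the range when each library was left out in turn, and the values run from -2.09 for ETV4 to 0.28 for DUSP6.

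On this log2(normalized reads + 1) scale the differences formed a wide range and not a common shift. Those of ETV4, SPRY4, ETV5 and ETV1 were below -1, those of PHLDA1, DUSP4, SPRED2 and SPRY2 between -1 and 0, and that of DUSP6 above 0. Of the genes that passed the filter, 2.93% had non-overlapping arms and a log2 difference below -1, as ETV4, SPRY4 and ETV5 did, and the threshold of 1 separated them from PHLDA1, the nearest above it that passed the filter. The median absolute log2 difference of all 15537 genes was 0.27. Among neighbours in the order, the intervals of 1 standard error overlapped between DUSP4 and SPRED2, and that of ETV1 overlapped with those of ETV5 and PHLDA1.

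Per kb of exon the order of levels in shNEG was DUSP6 with 977 ± 16.9 normalized reads per kb (SD, n = 3), then ETV5 with 534 ± 7.05 and SPRY2 with 533 ± 2.83, which did not differ beyond their spread. ETV4 followed with 341 ± 9.73, SPRED2 with 244 ± 8.78, DUSP4 with 123 ± 4.47, SPRY4 with 78.6 ± 3.06, PHLDA1 with 12.8 ± 1.12 and ETV1 with 1.35. In shSPINK2 the order was different. DUSP6 stayed at the top with 1184 ± 86.1, SPRY2 with 413 ± 12.2 stood alone in the second place, and ETV5 with 174 ± 9.51 came to the level of SPRED2 with 167 ± 12.2. ETV4 and DUSP4, with 79.6 ± 2.93 and 79.6 ± 5.90, could not be told apart on this scale, although ETV4 had been well above DUSP4 in shNEG. The joined exons span 3.515 kb in ETV4 and 7.273 kb in DUSP4, against 2335 and 5553 bases in their canonical transcripts. Which genes come out at like levels in either arm therefore depends on the length used. The lower end was made up of SPRY4 with 19.8 ± 0.75, PHLDA1 with 7.02 ± 1.16 and ETV1 with 0.56 ± 0.27 normalized reads per kb.

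**Figure D3:**
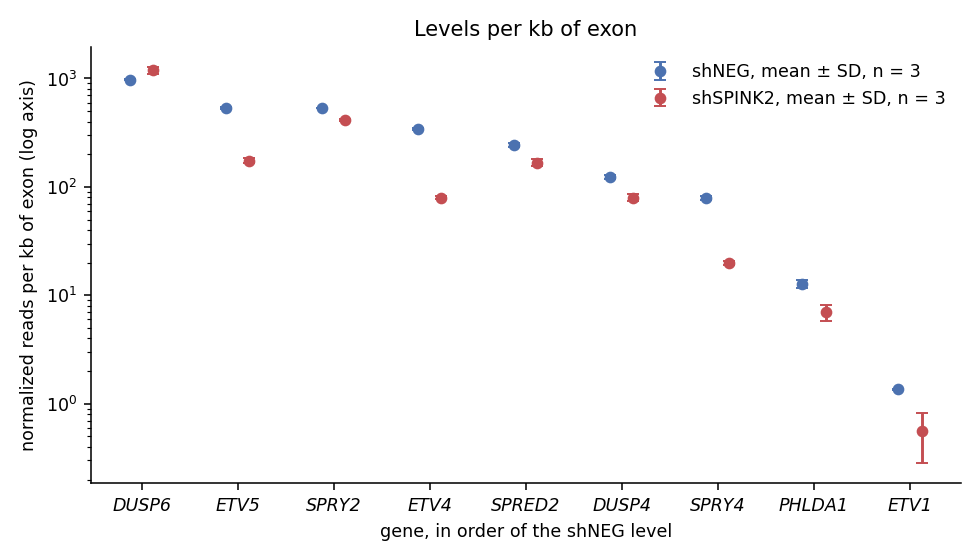
Normalized reads per kb of exon (log axis; exon lengths from GENCODE 44) of 9 genes in order of the shNEG level, as mean ± SD of 3 libraries in shNEG (blue) and shSPINK2 (red). DUSP6 is the highest in both arms, and ETV4 goes from 341 to 79.6, the level of DUSP4 in shSPINK2. The lengths join the exons of all transcripts of a gene, and such likeness of levels depends on the length used.

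Some reads could belong to an overlapping gene. For genes on opposite strands this depends on the strand setting of the counting, which is not stated. ETV4 shares 68 exonic bases with DHX8 on the other strand (mean 3353 normalized reads), and ETV5 shares 164 with DGKG on its own strand (mean 985). DUSP6 shares 1105 bases with an antisense lncRNA, ENSG00000274021, at a mean of 53.5 against 4169.8 for DUSP6. PHLDA1 overlaps PHLDA1-AS1, which was at 0.

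The genes whose log2 values ran most closely with ETV4 over the 6 libraries, out of 12025 others at a mean of 50 or more, were C1orf198, PRMT6, PPP1R14C, RRP1B and BCL10, with Pearson's r from 0.9995 to 0.9998. The 6 points fall into the 2 arms, so r mostly reflects a clear gap between arms with little spread within them, and 670 genes had r over 0.99. C1orf198 had 1477, 1465 and 1461 reads in shNEG and 601, 632 and 669 in shSPINK2, and RRP1B, a nucleolar protein, had 5139, 5257 and 5080 against 1715, 1801 and 1820. The log2 differences of the 5 genes lay between -1.55 (RRP1B) and -1.01 (PRMT6, an arginine methyltransferase), all smaller in size than that of ETV4. Of the members, SPRY4 and ETV5 had r of 0.998 and 0.997 with ETV4, SPRY2 0.988, DUSP4 0.972, SPRED2 0.965, PHLDA1 0.950 and DUSP6 -0.914.

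The rest of the pathway was looked at through 6 lists, by limma on the log2 values of all 15537 genes with a Benjamini-Hochberg adjusted p under 0.05. In this comparison 29.7% of all genes tested were called lower and 28.2% higher, and the shares of each list are to be read against these. The median log2 difference of all genes tested was 5.16e-05.

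In the cascade from RAS to ERK itself, 5 of 20 tested genes were lower (25.0%) and 8 higher (40.0%), with a median log2 difference of 0.09. With each library left out in turn, the higher genes numbered 6 to 10 and the lower genes stayed at 5. NRAS, a RAS GTPase often mutated in myeloid leukaemia, had 7087, 7039 and 7030 reads in shNEG and 2503, 2868 and 2531 in shSPINK2. No shSPINK2 library came near the shNEG libraries, and the log2 difference was -1.44 (standard error 0.05, limma adjusted p = 5.84e-24), the one gene of this list beyond 1 in size. Lower genes of the list also included HRAS (-0.60), the adaptor SHC1 (-0.19) and the exchange factor RASGRP2 (-0.15). The largest rises were those of RASGRP4 (0.59) and RASGRP3 (0.56), which load RAS with GTP, and of the adaptor GAB1 (0.33). Of the kinases, BRAF (0.18), MAP2K2 (0.12) and MAPK3, which encodes ERK1 (0.30), were higher, whereas MAP2K1 (-0.07) did not pass. The MAP2K2 call was lost without shNEG library a, without shNEG library b and without shSPINK2 library a. The reads of GRB2 and PTPN11 could not be resolved, KSR2 was at 0 and RASGRP1 was under the filter. The NRAS transcript holds both seed words, TCATAAT and TCAGTAT, and GCTCTCA in its 3′ UTR, the last within a 10-base run shared with shRNA2, and the part of these matches in the NRAS level was not tested.

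Among the other phosphatases, Sprouty proteins and RAS inhibitors, 9 of 21 tested genes were lower (42.9%) and 5 higher (23.8%), with a median log2 difference of -0.03. DAB2IP, a RAS GTPase-activating protein, had 103, 97 and 79 reads in shNEG and 34, 32 and 28 in shSPINK2, a log2 difference of -1.55 (standard error 0.17, limma adjusted p = 1.12e-09). DUSP1 (-1.07), DUSP9 (-0.64) and SPRY1 (-0.59) were lower too, at means between 46.7 and 198 normalized reads. DUSP2 (-0.33), DUSP5 (-0.27) and DUSP7 (-0.19) were lower by less, at means of 523, 654 and 2547 normalized reads. Higher genes included SPRY3 (0.84), DUSP10 (0.59), which acts mainly on p38 and JNK, DUSP16 (0.23) and CBLB (0.15). The CBLB call was lost under DESeq2 (adjusted p = 0.0537) and without library a or b of either arm. Paralogues of the Sprouty family therefore stood on both sides of 0, with SPRY4, SPRY1 and SPRY2 below it and SPRY3 above.

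Of the other genes commonly induced by ERK, 6 of 12 tested were lower (50.0%) and 4 higher (33.3%), with a median of -0.17. EGR1, an immediate early transcription factor, had 483, 505 and 508 reads in shNEG and 1167, 1174 and 1223 in shSPINK2, a log2 difference of 1.24 (standard error 0.06, limma adjusted p = 9.24e-20). EGR2 (0.93), FOS (0.46) and FOSB (0.40) were also higher. MAFF, a small MAF protein, was the lowest (-1.30, standard error 0.17), followed by the cyclin gene CCND1 (-0.83), FOSL1 (-0.60) and the chemokine CXCL8 (-0.45). EGR2 and CCND1 had means of only 20.2 and 30.4 normalized reads, and neither was tested with a minimum mean of 50. IER2 (-0.41) and JUNB (-0.27) made up the rest of the lower genes, and MYC could not be resolved.

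The kinases that ERK activates differed little. RPS6KA5 (-0.25), RPS6KA3 (-0.15) and RPS6KA1 (-0.12) were lower and MKNK2 (0.24) and MKNK1 (0.16) higher, out of 6 tested. The RPS6KA1 call was lost without shNEG library a (limma adjusted p = 0.0753) or shNEG library c (limma adjusted p = 0.129). Of the ETS factors outside the PEA3 family, 7 of 15 tested were lower (46.7%) and 5 higher (33.3%), with a median of -0.04. ETS1 had 6097, 6410 and 6334 reads in shNEG and 3373, 3460 and 3349 in shSPINK2, a log2 difference of -0.90 (standard error 0.04, limma adjusted p = 2.16e-19). ETV7 (-0.69) and ELK3 (-0.52) came next, and ERG (0.47), FLI1 (0.34), ELF2 (0.17), ETV3 (0.16) and ETV6 (0.15) were higher. The call of ERG, at a mean of 48.4 normalized reads, was lost under DESeq2 (adjusted p = 0.0914). That of ELF2 was lost without shNEG library b, shNEG library c or shSPINK2 library a, and that of ETV3 without shNEG library a. SPI1 and ELF1 could not be resolved. No ETS factor outside the PEA3 family reached a log2 difference of 1 in size among the 15 tested.

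Of the genes that hold the PEA3 factors down, the capicua complex and the ubiquitin ligase that degrades PEA3 proteins, 5 of 7 were tested, with 1 lower and 2 higher. CIC, the repressor, was lower by a small amount (-0.16, standard error 0.05, limma adjusted p = 0.00293), its partner ATXN1 (0.31) and the ligase subunit DET1 (0.39) were higher, and ATXN1L (0.04) and COP1 (0.11) did not pass. DDB1 and CUL4A could not be resolved. Of the cell type markers, MPO (-0.40) was lower, as was CD34 (-0.83) at its mean of 19.6, a call lost by DESeq2 (adjusted p = 0.0578) and without shNEG library c (limma adjusted p = 0.0737). CD33 (0.36) and PTPRC (0.32) were higher, COL1A1 was lower (-0.60) and PECAM1 higher (1.69). The part of these shifts in the levels of the ERK output genes was not tested.

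**Figure D4:**
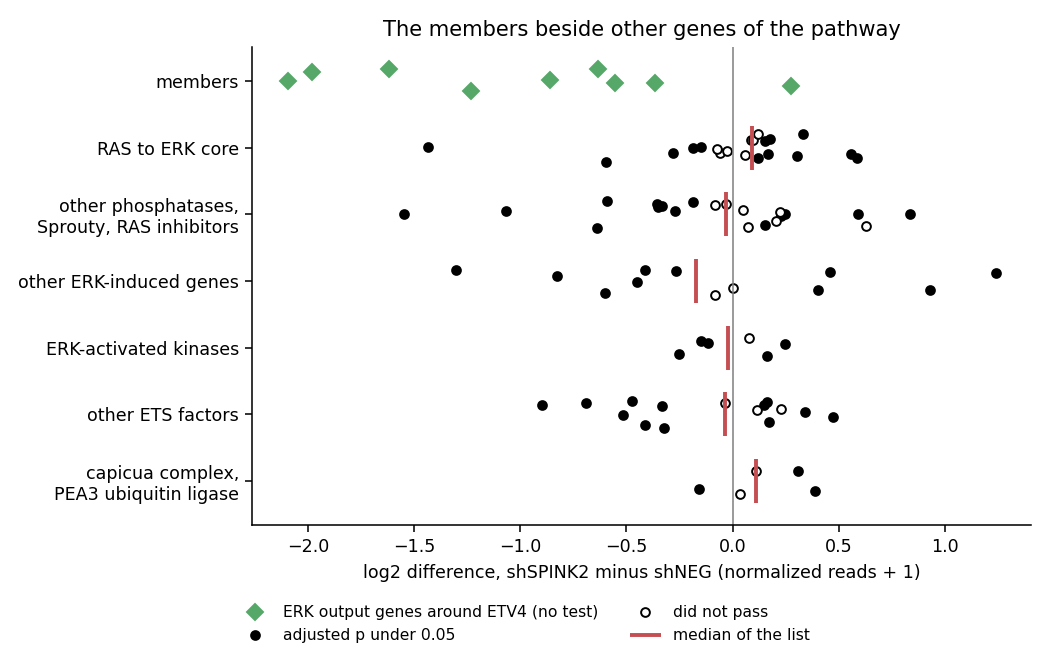
Log2 difference of shSPINK2 minus shNEG, on the log2(normalized reads + 1) scale, for the 9 ERK output genes (green diamonds, no test) and for the tested genes of 6 pathway lists (black, limma adjusted p under 0.05; white, did not pass), with the median of each list in red. The list medians lie between -0.17 and 0.11, and the lowest list gene is DAB2IP at -1.55.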

How the data were processed

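RNA of FUJIOKA cells was sequenced by the authors as paired reads of 150 bases, checked with FastQC, aligned to GRCh38 with STAR (2.7.11 in the submitters' processing notes), counted per gene with featureCounts and compared with DESeq2 (1.40.0 in the same notes). The annotation release and the strand setting are not given in the sources used here. The one deposited file is the authors' comparison. Its signal, as deposited by the authors, is the mean over the 6 libraries of read counts divided by size factors. Its log2 fold changes and standard errors on the log2 scale, deposited by the authors, were read only to tell the arms of the size factors apart and to choose between whole-number solutions. Neither these values nor the deposited p-values are printed or compared.

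Genes with 1 read in 1 library share 6 means, which give the size factors. For each gene, sets of whole reads were listed that give its mean to the 15 digits written. A set was kept where it alone gave the deposited contrast. At a mean of 10 or more, reads were resolved for 15537 of 16131 genes (96.3%), mainly missing those with means over 8000. In simulated data 199 of 200 genes with means of 1000 to 8000, and 86 of 200 with means of 8000 to 16000, had 1 solution, and each was correct.

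All genes with resolved reads and a mean of at least 10 were fitted with limma 3.58.1 (trend) on log2(reads over size factor + 1), with Benjamini-Hochberg adjustment. On simulated data for shSPINK2 against shNEG over 15537 genes, 85 of 100 genes changed by a log2 of 1 and 73 of 100 changed by 0.5 were called, with 5 false calls. The spread of the simulated reads was assumed, and far fewer genes were changed than were called in this comparison. These numbers need not hold for it. The log2 difference of a member is the difference of arm means, and its standard error comes from the SDs of the arms. Log2 values with a pseudocount of 1 understate changes of low genes. Alternatives were edgeR 4.0.16 and DESeq2 1.42.0 on the reads, other pseudocounts, filters and factors, and leaving out each library. No molecular identifiers are described, so read numbers cover counting error only. Exon lengths and transcripts came from GENCODE 44 and promoters from RefSeq.

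The members, the lists and the words searched were chosen with earlier results of these data known. Named genes are the members, SPINK2, of each list up to 3 genes per direction with the largest difference past the test and a mean of at least 50, any gene that a count of 5 or fewer refers to, and the 5 genes most correlated with ETV4. MAP2K1, BRAF, MAP2K2, MAPK3, DUSP1, DUSP2, DUSP5, DUSP7, CCND1, IER2, JUNB and the genes beside or overlapping members were added after their values were seen. Some genes of the lists that the rule names are not reported here.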

Additional observations from a re-analysis of the deposited data

How the results depend on the processing

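With an absolute log2 fold change over 1 added to the adjusted p-value, 456 genes were called lower and 274 higher, in place of 4616 and 4386. On the recovered reads edgeR called 4609 lower and 4418 higher, and DESeq2 4155 and 3820. Under DESeq2, and under a minimum mean of 50, 1 of the myeloid line markers was called lower in place of 2, the gene lost being CD34. With each library left out in turn, the higher ERK-activated kinases numbered 1 (without shNEG library a, which lost MKNK1) to 3, the higher ETS factors 3 (without shSPINK2 library a, which lost ERG and ELF2) to 6 and the lower myeloid markers 1 (without shNEG library c) to 2. No paired analysis was possible because the recovered libraries carry no replicate number. The log2 differences of the 9 members kept their direction and moved by less than the spread between libraries under all alternatives run, which were pseudocounts of 0.5 and 5, TMM factors, edgeR and DESeq2 (both without ETV1, which is under the filter) and each library left out. TMM factors moved the median log2 difference of all genes to 0.01. The few reads of ETV1 limit its precision, and why SPRED1 is at 0 was not tested.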
